A study of Mus musculus with 12 samples.

Results

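The genes described are those for the proteins of the cytosolic ribosome. They were chosen by symbol alone: every gene of the deposited expression table named Rpl or Rps with a number, together with Rpsa, Rplp0, Rplp1 and Rplp2, leaving out pseudogene symbols ending in -ps, the kinases named Rps6k and Rps19bp. The rule gave 86 genes, 50 named for the large subunit (Rpl) and 36 for the small subunit (Rps), out of 51912 genes in the table of counts. Among them, Rpl6l, Rps3a2, Rps3a3 and Rps12l1 are annotated in GENCODE as processed pseudogenes and Rps4l as a transcribed processed pseudogene. The rule keeps them, and the totals below include them. RNA came from the liver of 12 adult male mice in 4 groups of 3: wild-type (WT) mice given the vehicle corn oil, WT mice given CITCO, hCAR/hPXR mice given CITCO and CarKO/hPXR mice given CITCO. The hCAR/hPXR mice carry the human nuclear receptors CAR and PXR in place of the mouse receptors, and the CarKO/hPXR mice have no Car and have human PXR, both on a C57BL/6NTac background. CITCO is an agonist of human CAR, and work in vitro cited by the paper proposes that it also activates human PXR. It was injected at 10 mg/kg by the sample labels (the methods give more than 1 dose for short treatments), daily for 4 days, and the mice were killed on day 5. Vehicle-treated humanised mice were not analysed here, so in both humanised genotypes the effect of genotype and the response to CITCO cannot be told apart. The labels name single livers but not litters or days, and p-values measure the spread between these libraries.

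Each cytosolic ribosome is built from a small subunit, which reads the messenger RNA, and a large subunit, which joins amino acids. Nearly every subunit protein is present in a single copy per ribosome, and the exception is the stalk of the large subunit, where the acidic proteins P1 and P2 sit on P0 and recruit translation factors. Transcripts for these proteins begin with a run of pyrimidines, the 5′ terminal oligopyrimidine (TOP) tract, through which mTORC1 and Larp1 control their translation. In liver these messages are among the abundant housekeeping transcripts, and several serve as reference genes in quantitative PCR. The same genes have left many processed pseudogenes in mammalian genomes, so that short reads often fit more than 1 place.

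That last point bears directly on the values. Sequencing started from the 3′ end of each message, and the deposited counts come from RSEM, which shares out reads with several possible origins. Of the values above 0, 83.7% were not whole numbers among the ribosomal protein genes, against 13.4% among the other detected genes (counted as whole within 1e-06). A search of GENCODE M21 transcripts (GRCm38) with those of each gene found 572 near-identical copies of 78 of the 86 genes (at least 95% identity over at least 100 bases and 50% of the copy), of which 559 are annotated as pseudogenes and 392 had counts. Each gene and its copies are called a family here, with 82 families in all. Copies held 15.4% of all family counts, and in some families they held most of them, among them Rps23 (99.1%), Rpl27 (92.7%), Rpl5 (90.1%), Rpl17 (88.9%), Rpl12 (87.6%), Rpl35 (86.4%) and Rps15a (82.8%). In 18 of 75 families with a counted copy, the most counted copy had no difference from the gene's transcript over the aligned bases. In such families a level printed for the gene is the part of the reads that the estimation placed there.

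**Figure D1:**
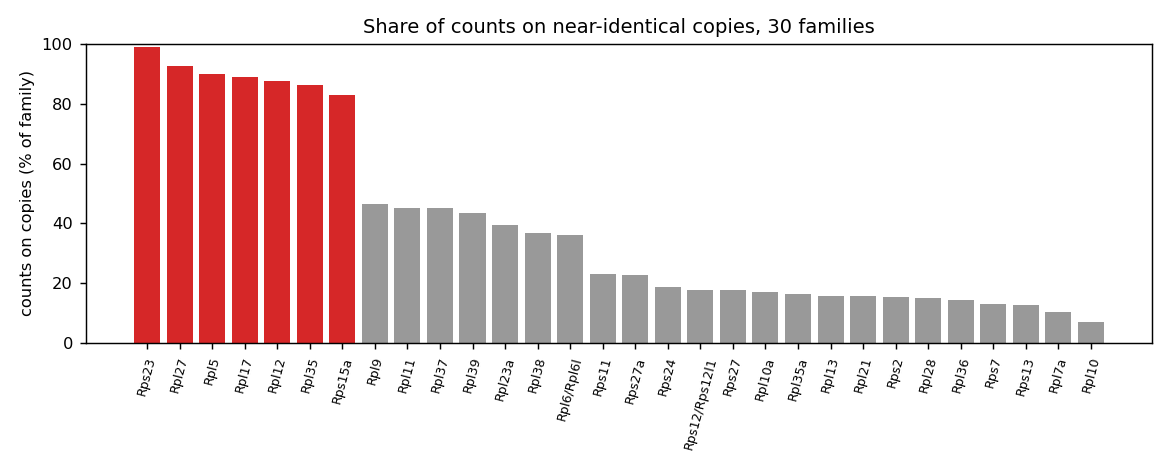
Percent of each family's expected counts, summed over the 12 libraries, that lie on near-identical copies and not on the ribosomal protein gene, for 30 families with high shares. Red bars mark families above 50%, from Rps23 at 99.1% to Rps15a at 82.8%, and grey bars the others, led by Rpl9 at 46.6%.

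The libraries held 1167027 to 2341572 expected counts, a shallow depth at which 3 counts correspond to between 1.34 and 2.51 CPM. CPM is the usual unit that scales each count to its library's total, here with edgeR's TMM factors. Of the 86 genes, 82 passed edgeR's expression filter and were tested among 8594 genes. The other 4 (Rpl3l, the muscle paralog of Rpl3, and Rpl6l, Rps3a2 and Rps3a3) were between 0 and 5.64 CPM in every library. Rps23 was tested, but its own gene was at 0 to 15.5 CPM while its family summed to between 634 and 807 CPM. Within groups, the tested genes had a median standard deviation of 0.19 on the log2 CPM scale, against 0.22 for 1656 other genes at similar levels. Liver identity was plain, with albumin (Alb) at 7649 to 20010 CPM. Cholangiocyte markers were low, from 3 counts in all 12 libraries together for Krt7 to 293 for Sox9.

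Summed over the 86 genes, the level was highest in the hCAR/hPXR mice. It was 27408, 26532 and 27258 CPM in the WT corn oil libraries, 27379, 27006 and 27977 CPM in the WT CITCO libraries, 29248, 30390 and 34621 CPM in the hCAR/hPXR libraries and 26564, 26455 and 28698 CPM in the CarKO/hPXR libraries. All 3 hCAR/hPXR libraries thus lay above the other 9, and the highest, replicate 3, is also the smallest library. The same order held with copies added, at 34466 to 40986 CPM in hCAR/hPXR mice against 31486 to 33830 CPM elsewhere, and in each subunit, at 15454 to 18121 CPM for the large subunit in hCAR/hPXR mice against 14073 to 14990 CPM elsewhere, and 13794 to 16500 CPM for the small subunit against 12056 to 13709 CPM. As a plain share of all counts, with no TMM scaling, the groups overlapped: 2.81% to 3.56% in hCAR/hPXR mice, 2.59% to 2.82% in WT mice given corn oil, 2.36% to 2.90% in WT mice given CITCO and 2.52% to 2.98% in CarKO/hPXR mice. No test was made on the sum.

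**Figure D2:**
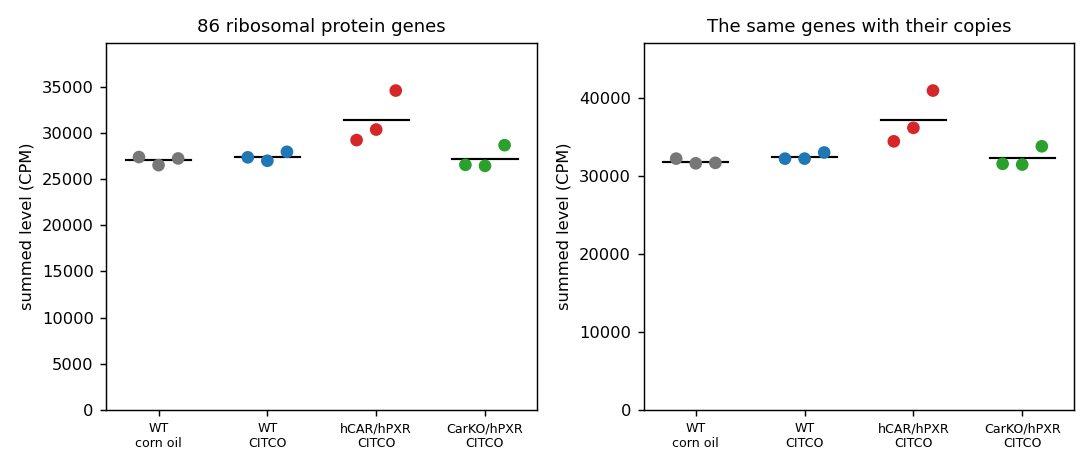
Summed level in TMM-scaled CPM of the 86 ribosomal protein genes (left) and of the same genes with their near-identical copies (right), by group. Each point is 1 library and each bar the mean of 3 libraries; the hCAR/hPXR points at 29248, 30390 and 34621 CPM on the left lie above the other 9.

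Immune cell markers, too, had their highest group median in hCAR/hPXR mice. The 10 immune and Kupffer cell markers, all found and 8 tested, summed to 199 to 283 CPM in WT mice given corn oil, 246 to 341 CPM in WT mice given CITCO, 336 to 415 CPM in hCAR/hPXR mice and 261 to 299 CPM in CarKO/hPXR mice. Of the 8 tested, 6 were above 0 for hCAR/hPXR CITCO against WT corn oil and 5 against WT mice given CITCO, and the largest part of the sum was the macrophage marker Cd5l, at 257, 262 and 171 CPM in hCAR/hPXR mice and 111 to 195 CPM elsewhere. The Kupffer cell marker Clec4f averaged 49.0, 54.1, 40.9 and 40.9 CPM in the 4 groups. The neutrophil genes S100a8 and S100a9 were those called against WT corn oil, both higher in hCAR/hPXR mice: S100a8 was at 15.02, 25.5 and 28.4 CPM there against 1.34 to 5.85 CPM in the other 9 libraries, with a log2 fold change against WT corn oil of 3.25 (SE 0.46, adjusted p = 0.00144, edgeR). The T and B cell markers Cd3e and Cd79a had 10 and 5 counts in all libraries together. The 5 erythroid markers summed to 1859 to 2192 CPM in hCAR/hPXR mice and 1987 to 3985 CPM in the other groups. Alas2, of haem synthesis, was called lower in hCAR/hPXR mice than in WT mice given corn oil (log2 fold change −1.01, SE 0.22, adjusted p = 0.0264, edgeR). It was at 208 to 278.5 CPM with corn oil and 161 to 187 CPM in WT mice given CITCO. In hCAR/hPXR mice it was at 91.75 to 163 CPM and in CarKO/hPXR mice at 108 to 176 CPM. All CITCO libraries thus lay below all corn oil ones for this gene. Hepatocyte markers (5 of 6 found; transferrin was not matched) summed to 19680, 21040 and 35650 CPM in hCAR/hPXR mice, the last in replicate 3, and to 26260 to 34420 CPM elsewhere. Endothelial markers summed to 173 to 193 CPM in hCAR/hPXR mice and 184 to 228 CPM elsewhere, stellate markers to 240 to 270 CPM and 167 to 343 CPM, and cholangiocyte markers, of which only Sox9 was tested, to 16.2 to 20.02 CPM and 12.7 to 27.5 CPM. In bulk liver a change in the mix of cells and a change of RNA per cell cannot be told apart, and the part of these markers in the ribosomal protein levels was not tested.

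Gene by gene, the differences were small and seldom passed the test. Among the 82 tested genes, 56 had their highest group mean in hCAR/hPXR mice, as did 27.8% of all genes tested, and 1 had its lowest there, against 24.6% of all genes. The median log2 fold change of the 82 genes was 0.18 for hCAR/hPXR against WT mice given CITCO (68 of 82 above 0; 0.01 and 51.6% over all genes tested). Against CarKO/hPXR mice given CITCO it was 0.21 (73 of 82 above 0; 0.01 and 51.5% over all genes), and against WT mice given corn oil 0.24 (68 of 82 above 0; 0.01 and 51.3% over all genes). These 3 comparisons share the hCAR/hPXR libraries. Without hCAR/hPXR replicate 3, the 3 medians were 0.10, 0.12 and 0.14.
In the comparisons that leave out hCAR/hPXR mice the medians lay nearer 0. WT mice given CITCO against corn oil gave 0.07 (52 of 82 above 0, with 50% of all genes), CarKO/hPXR against WT mice given CITCO −0.05 (32 of 82, with 49.5%), which became 0.03 with total counts as the only scaling, and CarKO/hPXR mice against WT mice given corn oil 0.01 (43 of 82, with 50%).

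**Figure D3:**
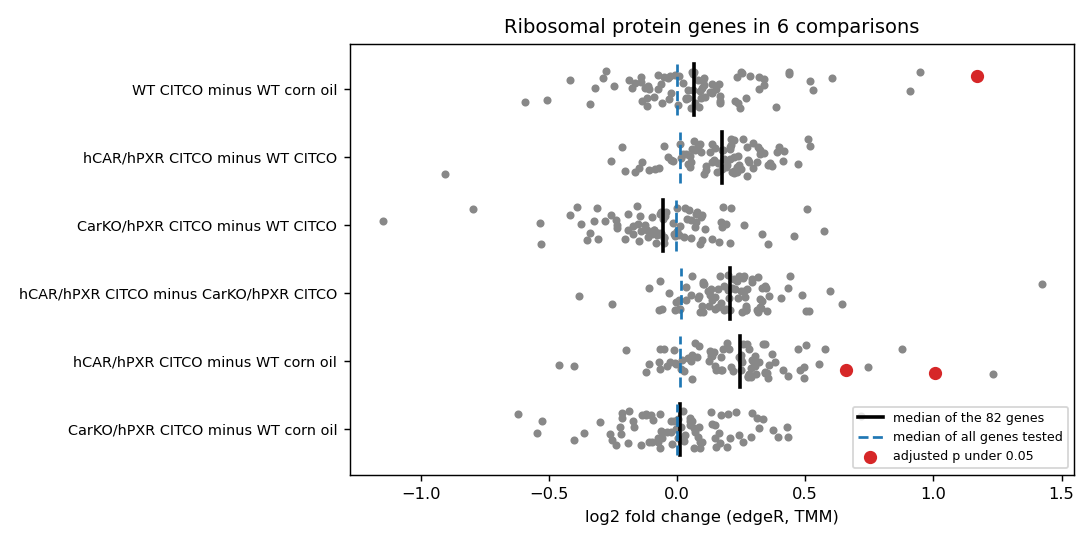
Log2 fold change of each of the 82 tested ribosomal protein genes (points, spread vertically at random) in the 6 comparisons, from edgeR with TMM scaling. Black bars are the medians of the 82 genes, dashed blue bars those of all 8594 genes tested, and red points have an adjusted p under 0.05: Rpl9 in WT CITCO minus WT corn oil, and Rpl9 and Rps4x in hCAR/hPXR CITCO minus WT corn oil.

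Calls were made at an adjusted p under 0.05 (edgeR's quasi-likelihood test on all 12 libraries, with Benjamini-Hochberg adjustment over the 8594 genes). For WT mice given CITCO against corn oil, 1 ribosomal protein gene was called, Rpl9, where 0.233% of all genes tested were. For hCAR/hPXR CITCO against WT corn oil, 2 were called, Rpl9 and Rps4x, where 0.989% of all genes were. None was called for hCAR/hPXR against WT mice given CITCO (0.407% of all genes), CarKO/hPXR against WT mice given CITCO (0.256%), hCAR/hPXR against CarKO/hPXR mice given CITCO (0.582%) or CarKO/hPXR CITCO against WT corn oil (0.0465%). The counts of ribosomal protein genes at an unadjusted p under 0.05 in those 4 were 11, 8, 12 and 5 of 82, against 8.81%, 9.3%, 10.6% and 5.6% of all genes. DESeq2 called no ribosomal protein gene in any of the 4, where it called 67, 70, 103 and 14 of all 8594 genes. The test of any difference among the 4 groups called 1 gene, Rpl9, where 1.42% of all genes were called. At an unadjusted p under 0.05 that test held 15 of the 82 genes and 11.6% of all genes.

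The direction among genes with no overlap between the libraries of 2 groups was uneven. For hCAR/hPXR CITCO against WT corn oil, 26 of 82 genes were higher with no overlap (8.49% of all genes) and 1 was lower (7.68%). For hCAR/hPXR against CarKO/hPXR mice given CITCO, 19 were higher (8.01%) and 0 lower (7.06%), and for hCAR/hPXR against WT mice given CITCO, 18 were higher (7.12%) and 1 lower (6.53%). At an unadjusted p under 0.05 the same comparisons held 19, 12 and 10 higher genes (5.82%, 5.6% and 4.74% of all genes) and 0, 0 and 1 lower ones (5.11%, 5.03% and 4.07%). Both lower genes belong to families whose counts lie mostly on copies: Rpl35, lower without overlap than in WT mice given corn oil, and Rpl12, lower than in WT mice given CITCO.
In the other comparisons both directions occurred. For WT CITCO against WT corn oil, 12 of 82 genes were higher without overlap (6.88% of all genes) and 5 lower (7.85%). At an unadjusted p under 0.05 there were 11 (9.13% of all genes), 8 higher (4.53%) and 3 lower (4.61%). These were 11 of 48 large subunit genes and 0 of 34 small subunit genes, a difference that was not tested. Above 0 were 27 of 48 large (56.2%) and 25 of 34 small subunit genes (73.5%), beside 50% of all genes. Without overlap, 9 large and 3 small subunit genes were higher (6.88% of all genes), and 3 and 2 lower (7.85% of all genes). For CarKO/hPXR against WT mice given CITCO, 6 were higher without overlap (7.45%) and 10 lower (6.77%), with 2 higher (4.88%) and 6 lower (4.42%) at an unadjusted p under 0.05. For CarKO/hPXR CITCO against WT corn oil, 9 were higher without overlap (5.63%) and 5 lower (6%), with 3 higher (2.9%) and 2 lower (2.7%) at an unadjusted p under 0.05.

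Rpl9 (chromosome 5, 65388364 to 65391444, minus strand, GRCm38), which encodes a protein of the large subunit, was the only ribosomal protein gene called in more than 1 comparison. It was at 130, 87.4 and 76.7 CPM in WT mice given corn oil, 279, 225 and 163 CPM in WT mice given CITCO, 233, 215 and 144 CPM in hCAR/hPXR mice and 185, 195 and 177 CPM in CarKO/hPXR mice. Every CITCO library lay above every corn oil library. The log2 fold change was 1.17 (SE 0.23, adjusted p = 0.0322, edgeR) for WT CITCO against WT corn oil and 1.01 (SE 0.23, adjusted p = 0.0377, edgeR) for hCAR/hPXR CITCO against WT corn oil, and CarKO/hPXR CITCO against WT corn oil gave 0.91 (SE 0.23, adjusted p = 0.296, edgeR). The first call was lost without WT corn oil replicate 2 or 3 or WT CITCO replicate 1 or 2 (adjusted p between 0.164 and 0.271, edgeR), and the second without WT corn oil replicate 2 or 3 or hCAR/hPXR replicate 1 or 2 (adjusted p between 0.108 and 0.219, edgeR).
The near-identical copy Rpl9-ps6, annotated as protein coding on chromosome 19, stood in the opposite order between the WT groups. Rpl9-ps6 was at 142, 317 and 196 CPM in WT mice given corn oil, 81.1, 76.1 and 163 CPM in WT mice given CITCO, 133, 120 and 209 CPM in hCAR/hPXR mice and 147, 98.5 and 149 CPM in CarKO/hPXR mice. The WT groups overlapped at 1 library each, and the log2 fold change for WT CITCO against WT corn oil was −1.03 (SE 0.31, adjusted p = 0.253, edgeR). Of the counts on this pair of genes, Rpl9 held 47.8%, 21.7% and 28.1% in the corn oil libraries and 40.9% to 77.5% in the 9 CITCO libraries.
Summed, the groups of the family overlapped in both called comparisons. The Rpl9 family was at 274, 405 and 274 CPM in WT mice given corn oil, 362, 304 and 327 CPM in WT mice given CITCO, 370, 339 and 355 CPM in hCAR/hPXR mice and 335, 294 and 330 CPM in CarKO/hPXR mice. Its log2 fold change for WT CITCO against WT corn oil was 0.06 (SE 0.16, adjusted p = 0.950, edgeR on counts with copies summed, an alternative chosen after seeing the data), and for hCAR/hPXR CITCO against WT corn oil 0.16 (SE 0.16, adjusted p = 0.810, edgeR).

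**Figure D4:**
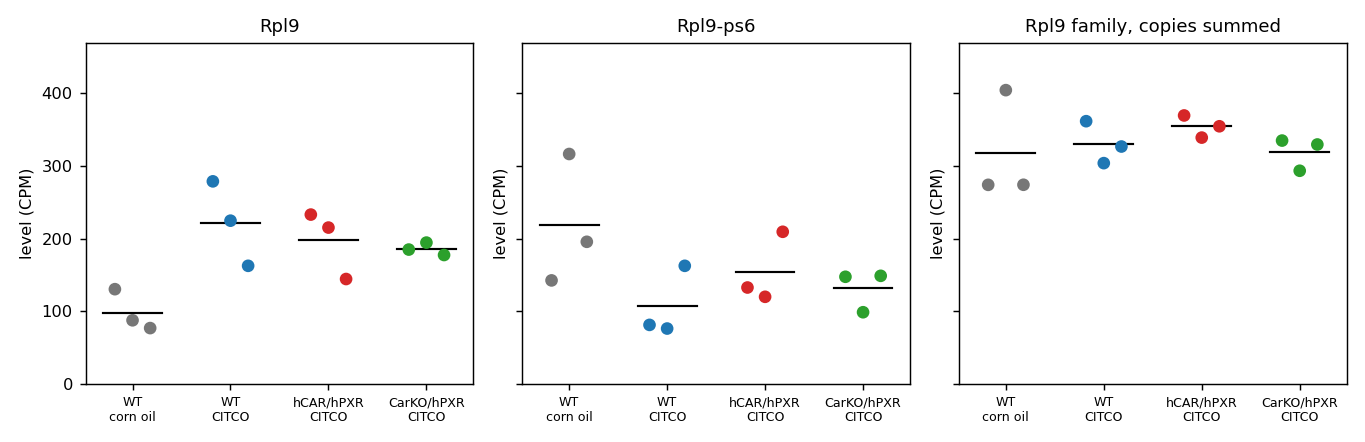
Levels in TMM-scaled CPM of Rpl9, of its near-identical copy Rpl9-ps6 and of the Rpl9 family with copies summed, by group; each point is 1 library and each bar the mean of 3. Rpl9 spans 76.7 to 130 CPM with corn oil and 144 to 279 CPM with CITCO, Rpl9-ps6 spans 142 to 317 CPM with corn oil, and the family spans 274 to 405 CPM over all libraries.

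Rps4x, on chromosome X (102184941 to 102189394, minus strand), encodes a core protein of the small subunit and had only 0.42% of its family's counts on copies. It was at 173, 170 and 144 CPM in WT mice given corn oil, 213, 154 and 211 CPM in WT mice given CITCO, 246, 260 and 264 CPM in hCAR/hPXR mice and 191, 211 and 214 CPM in CarKO/hPXR mice. All hCAR/hPXR libraries lay above all others, and all corn oil libraries lay below the CarKO/hPXR ones. Its log2 fold change was 0.66 (SE 0.15, adjusted p = 0.0445, edgeR) for hCAR/hPXR CITCO against WT corn oil, a 1.58-fold difference, and 0.66 (adjusted p = 0.0394, edgeR) with copies summed, the only family called in any comparison (1.13% of all genes were called there). Against WT mice given CITCO it was 0.41 (SE 0.15, adjusted p = 0.402, edgeR) and against CarKO/hPXR mice 0.32 (SE 0.15, adjusted p = 0.465, edgeR). This call was close to the threshold: it was lost whichever of the 6 libraries was left out, with an adjusted p between 0.0889 and 0.239. Rps4l, annotated in GENCODE as a transcribed processed pseudogene, was at 9.84 to 26.7 CPM over the 12 libraries.

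All 3 stalk genes had a log2 fold change above 0 for hCAR/hPXR mice against each other group, and none passed the test. Of all 82 genes, 68 were above 0 against WT corn oil, 68 against WT CITCO and 73 against CarKO/hPXR mice. Rplp2, which encodes P2, was at 747, 668 and 661 CPM in WT mice given corn oil, 860, 691 and 648 CPM in WT mice given CITCO, 932, 1064 and 1055 CPM in hCAR/hPXR mice and 927, 772 and 846 CPM in CarKO/hPXR mice. The hCAR/hPXR libraries were above all others, by only 932 against 927 CPM at the closest. Its log2 fold change for hCAR/hPXR CITCO was 0.56 against WT corn oil (SE 0.16, adjusted p = 0.117, edgeR) and 0.47 against WT CITCO (SE 0.16, adjusted p = 0.297, edgeR). DESeq2 called it against WT corn oil and in the test of 4 groups.
Rplp0, which encodes P0, was at 289, 270 and 256 CPM in WT mice given corn oil, 381, 346 and 292 CPM in WT mice given CITCO, 375, 366 and 409 CPM in hCAR/hPXR mice and 301, 368 and 295 CPM in CarKO/hPXR mice. Every CITCO library was above every corn oil library, with an adjusted p of 0.351 for any difference among the 4 groups (edgeR). Rplp1, which encodes P1, was at 1035 to 1185 CPM in WT mice given corn oil, 962 to 1112 CPM in WT mice given CITCO, 1058 to 1507 CPM in hCAR/hPXR mice and 1145 to 1189 CPM in CarKO/hPXR mice, where all groups but CarKO/hPXR and WT CITCO overlapped (adjusted p = 0.615 among the 4 groups, edgeR).

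In 7 of the 82 genes all 3 hCAR/hPXR libraries lay above all 9 others (1.42% of all genes tested did), and in none below them (0.954%). Beside Rps4x and Rplp2 these were Rpl4, Rpl8, Rpl23, Rps21 and Rps24, named after their values were seen. Rpl4, a large subunit protein near the exit tunnel, was at 181, 152 and 149 CPM in WT mice given corn oil, 180, 175 and 155 CPM in WT mice given CITCO, 204, 229 and 249 CPM in hCAR/hPXR mice and 168, 191 and 146 CPM in CarKO/hPXR mice. Rpl8, a large subunit protein, was at 361 to 397 CPM in hCAR/hPXR mice against 254 to 344 CPM in the other 9 libraries, with little spread inside the group.
Rps24, a small subunit protein mutated in some families with Diamond-Blackfan anaemia, was at 479 to 609 CPM in hCAR/hPXR mice against 403 to 470 CPM elsewhere. Rps21, another small subunit protein, was at 531 to 688 CPM against 429 to 528 CPM. Rpl23, which can bind the p53 regulator Mdm2, was at 688 to 745 CPM against 591 to 668 CPM. None of these 5 passed the test in any comparison, and the largest log2 fold change among them was 0.50 for Rpl4 in hCAR/hPXR CITCO against WT corn oil (SE 0.15, adjusted p = 0.171, edgeR).

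**Figure D5:**
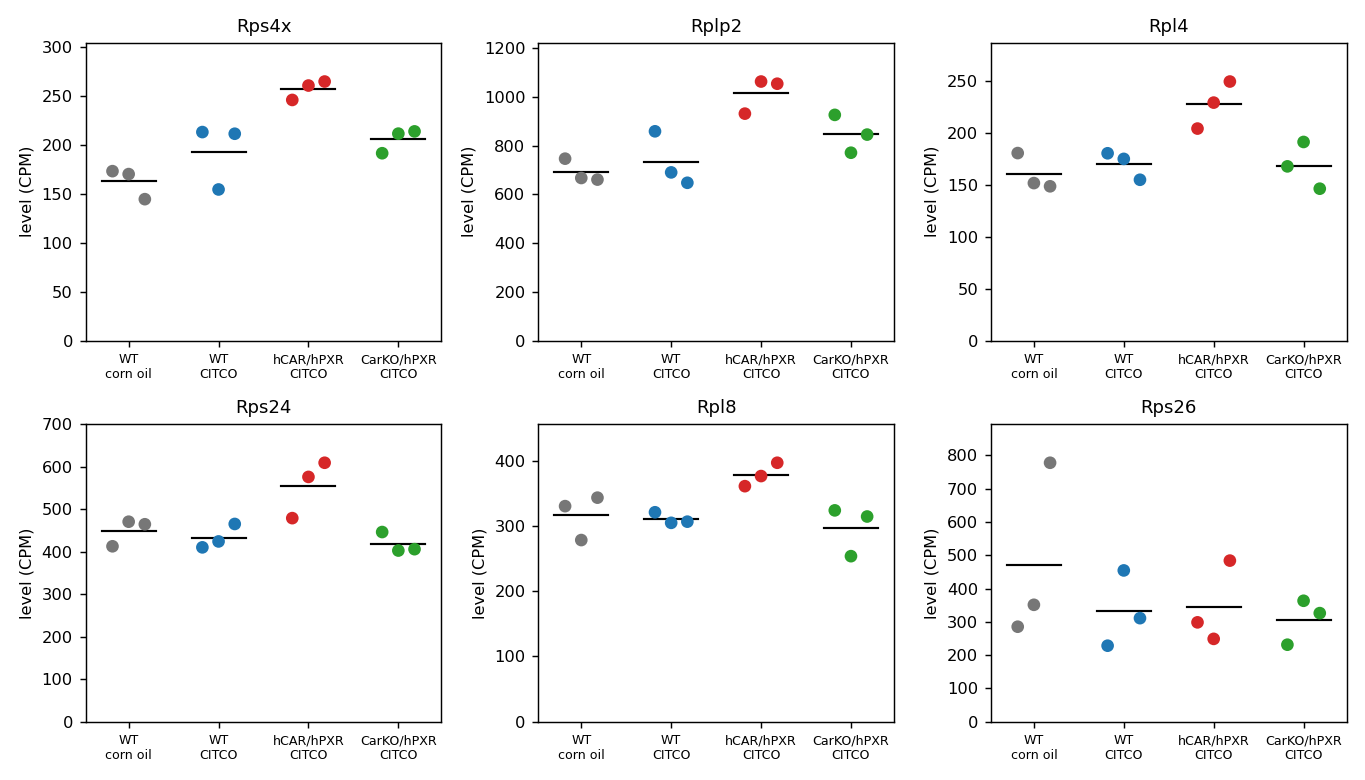
Levels in TMM-scaled CPM of Rps4x, Rplp2, Rpl4, Rps24, Rpl8 and Rps26 by group; each point is 1 library and each bar the mean of 3. For the first 5 genes the hCAR/hPXR points lie above the other 9, whereas Rps26 is spread by 1 WT corn oil library at 778 CPM.

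Rpl5 and Rpl11 carry 5S ribosomal RNA into the large subunit and, when unassembled, bind Mdm2. In the list of 6 such Mdm2-binding ribosomal proteins (Rpl5, Rpl11, Rpl23, Rpl26, Rps7 and Rps27l), none was called in any comparison. For hCAR/hPXR CITCO against WT corn oil, 5 of 6 were above 0 with a median of 0.24, beside 68 of 82 and 0.24 for all ribosomal protein genes tested. Rpl5 had the largest rise of any ribosomal protein gene in that comparison: it was at 24.6, 33.1 and 13.3 CPM in WT mice given corn oil, 57.7, 28.4 and 46.4 CPM in WT mice given CITCO, 57.5, 37.6 and 72.6 CPM in hCAR/hPXR mice and 36.9, 40.9 and 38.6 CPM in CarKO/hPXR mice. The hCAR/hPXR and corn oil libraries did not overlap, and the log2 fold change was 1.23 (SE 0.31, adjusted p = 0.0681, edgeR). DESeq2 called this difference, as did edgeR without hCAR/hPXR replicate 2. Copies hold 90.1% of the family's counts, and the most counted, Gm15500, matches the transcript Rpl5-201 over 1018 bases with 0 differences. With copies summed, the Rpl5 family was at 336 to 374 CPM with corn oil and 443 to 491 CPM in hCAR/hPXR mice, still without overlap, and the log2 fold change was 0.42 (SE 0.14, adjusted p = 0.195, edgeR). Rpl11 was at 212 to 302 CPM over the 12 libraries (adjusted p = 0.844 among the 4 groups, edgeR).

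In a list of 13 genes mutated in Diamond-Blackfan anaemia, an inherited failure of red cell production, which does not hold every such gene, none was called in any comparison. For hCAR/hPXR CITCO against WT corn oil, 11 of 13 were above 0 with a median of 0.18, close to the 0.24 of all 82 genes. Rps19, the gene most often mutated in that disease, was at 63.2 to 99.5 CPM, with overlap of all groups (adjusted p = 0.858 among the 4 groups, edgeR). Rps26 was spread more by libraries than by groups, at 285, 351 and 778 CPM in WT mice given corn oil, 228 to 454 CPM in WT mice given CITCO, 249 to 484 CPM in hCAR/hPXR mice and 231 to 363 CPM in CarKO/hPXR mice. It had the largest fall of any ribosomal protein gene for hCAR/hPXR CITCO against WT corn oil, −0.46 (SE 0.33, adjusted p = 0.680, edgeR), and for CarKO/hPXR CITCO against WT corn oil, −0.62 (SE 0.33, adjusted p = 0.887, edgeR). Without WT corn oil replicate 3, these became 0.10 and −0.055.

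For 7 ribosomal protein genes that often serve as reference genes in quantitative PCR (Rplp0, Rpl4, Rpl13a, Rpl19, Rpl32, Rps18 and Rps29), none was called in any comparison. All 7 were above 0 for hCAR/hPXR against WT mice given CITCO, with a median of 0.21, close to the 0.18 of all 82 genes, of which 68 were above 0. Rpl13a, a large subunit protein, was at 340, 335 and 298 CPM in WT mice given corn oil, 313, 321 and 436 CPM in WT mice given CITCO, 333, 378 and 448 CPM in hCAR/hPXR mice and 275, 281 and 260 CPM in CarKO/hPXR mice. The CarKO/hPXR libraries were below all others, and the log2 fold change of hCAR/hPXR over CarKO/hPXR mice was 0.50 (SE 0.16, adjusted p = 0.226, edgeR). Rps18 and Rps29, both of the small subunit, varied less: Rps18 was at 525 to 726 CPM and Rps29 at 897 to 1309 CPM over the 12 libraries, and their adjusted p among the 4 groups was 0.840 and 0.870 (edgeR).

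Paralogs that can stand in for a core protein showed no called change. Rps27l, a p53-responsive paralog of Rps27, was at 130 to 169 CPM in WT mice given corn oil, 141 to 190 CPM in WT mice given CITCO, 112 to 162 CPM in hCAR/hPXR mice and 130 to 141 CPM in CarKO/hPXR mice. Rpl22l1, the paralog of Rpl22, was at 99.4 to 198 CPM and Rpl7l1, a paralog of Rpl7 that acts in ribosome assembly, at 49.6 to 79.3 CPM over all libraries. Adjusted p-values among the 4 groups were 0.731, 0.743 and 0.906 for these 3 genes (edgeR). The groups overlapped for Rpl22l1 and Rpl7l1, whereas for Rps27l the CarKO/hPXR libraries lay just below those of WT mice given CITCO. Rpl3l, Rpl10l and Rpl39l, which are known from muscle and testis, did not pass the filter.

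None of the ribosomal protein genes with the largest changes in the remaining comparisons passed the test. Rps12l1, annotated in GENCODE as a processed pseudogene of Rps12, was at 99.0, 55.7 and 135 CPM in WT mice given corn oil, 67.5, 157 and 218 CPM in WT mice given CITCO, 196, 106 and 234 CPM in hCAR/hPXR mice and 180, 0 and 10.7 CPM in CarKO/hPXR mice. It had the largest fall for CarKO/hPXR against WT mice given CITCO, −1.15 (SE 0.76, adjusted p = 0.678, edgeR), and the largest rise for hCAR/hPXR over CarKO/hPXR mice, 1.42 (SE 0.76, adjusted p = 0.539, edgeR). Without CarKO/hPXR replicate 1 both passed the threshold, at −4.75 (adjusted p = 0.00798, edgeR) and 5.02 (adjusted p = 0.00465, edgeR), whereas with copies summed the log2 fold changes were −0.09 and 0.26. The Rps12 family held 545 to 1211 CPM, and the highest library, WT CITCO replicate 2, had 619 counts on the pseudogene Rps12-ps4.
Rpl12 had the largest fall for hCAR/hPXR against WT mice given CITCO, at 61.0, 78.1 and 60.5 CPM in the WT and 54.4, 27.2 and 22.5 CPM in the hCAR/hPXR libraries (log2 fold change −0.91, SE 0.35, adjusted p = 0.423, edgeR). With copies summed this turned to 0.04. In the same comparison Rps13, a small subunit protein, had the largest rise, at 293, 427 and 442 CPM in WT and 523, 378 and 764 CPM in hCAR/hPXR mice, which overlapped (0.52, SE 0.21, adjusted p = 0.470, edgeR). Against WT corn oil, at 292, 380 and 322 CPM, the Rps13 value was 0.74 (SE 0.22, adjusted p = 0.137, edgeR) and was called without hCAR/hPXR replicate 2.
Rpl35, of the large subunit, had the largest fall for WT CITCO against WT corn oil (−0.59, SE 0.28, adjusted p = 0.547, edgeR) and the largest rise for CarKO/hPXR over WT mice given CITCO (0.57, SE 0.29, adjusted p = 0.557, edgeR). It was at 45.2, 38.1 and 45.9 CPM with corn oil, 40.2, 20.1 and 25.3 CPM in WT mice given CITCO, 31.6, 37.6 and 28.4 CPM in hCAR/hPXR mice and 57.2, 25.1 and 44.4 CPM in CarKO/hPXR mice. Its value for hCAR/hPXR against CarKO/hPXR mice, −0.38 (SE 0.28, adjusted p = 0.701, edgeR), the largest fall among the 82 genes there, turned to 0.20 with copies summed, where Gm2000 holds most reads.

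None of the other genes in the fixed set was called in any comparison. Rpsa, which encodes a small subunit protein also known as the laminin receptor precursor, was at 319 to 356 CPM in WT mice given corn oil, 308 to 365 CPM in WT mice given CITCO, 356 to 425 CPM in hCAR/hPXR mice and 274 to 338 CPM in CarKO/hPXR mice, so that hCAR/hPXR and CarKO/hPXR mice did not overlap (adjusted p = 0.603 among the 4 groups, edgeR). Rps6, the substrate of the S6 kinases, was at 172 to 206 CPM with corn oil, 214 to 248 CPM in WT mice given CITCO, 174 to 322 CPM in hCAR/hPXR mice and 223 to 238 CPM in CarKO/hPXR mice (adjusted p = 0.728, edgeR). The WT groups did not overlap for this gene, and the hCAR/hPXR libraries spanned nearly all the others.
Rps3, a small subunit protein with a further role in DNA repair, was at 238 to 362 CPM (adjusted p = 0.737 among the 4 groups, edgeR) and Rps27 at 317 to 519 CPM (0.578). Rps27a, whose product starts as a fusion with ubiquitin, was at 508 to 770 CPM (0.724). Of the large subunit, Rpl3, which shapes the peptidyl transferase centre, was at 193 to 327 CPM (0.633), Rpl10, which joins the subunit late in its assembly, at 795 to 1564 CPM (0.686), Rpl22 at 239 to 403 CPM (0.728) and Rpl39, a small protein of the exit tunnel, at 112 to 265 CPM (0.535).

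The starts of these transcripts are shown for the pyrimidine tract that the family is known for. RefSeq promoters (GRCm38.p6) covering 250 bases before to 50 after the start were matched for 61 of the 86 genes, with 73 entries. The pyrimidine motif CTCTTTC, on the transcript's strand from 30 bases before to 50 after the start, was in 17.8% of these entries and 1.08% of all 32851 promoters. With CTCTTCC and CTTTTCC added, which may overlap it, 34.2% of the entries and 3.5% of all promoters held at least 1. Windows of 30 bases, with the motif in capitals, are given for genes described above:
Rpl35 (chr2:39005113-39005142, minus strand): cccgccctttcCTCTTTCtctcgaaccagg
Rpl5 (chr5:107900498-107900527, plus strand): cctacagccaCTCTTTCtcacgtcgcttgc
Rpl4 (chr9:64173364-64173393, plus strand): acaagtctttcCTTTTCCtgtgggagcagc
Rps26 (chr10:128626483-128626512, minus strand): gccgccggatcCTCTTTCgagtcttggctc
Rps18 (chr17:33955645-33955674, minus strand): acttccgctctCTCTTCCacaggaggccta
These letters lie within a few bases of the RefSeq start in Rpl35, Rps26 and Rps18, 12 bases before it in Rpl4 and 20 bases before it in Rpl5. The GENCODE genes start earlier, at 64173375 for Rpl4, the first base of its motif, and at 107900502 for Rpl5, before its motif. RefSeq starts may differ from those used in liver. The motif GGAAGT, searched on both strands over the 300 bases, was in 45.2% of the entries and 23.8% of all promoters, and TATAAA in the 50 bases before the start in 1.37% and 2.63%. A match is a string of letters and says nothing of a factor bound in these livers.

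Other genes of the translation machinery were examined from fixed lists. Of 36 translation factors and other TOP messages, none was called in any comparison. For hCAR/hPXR CITCO against WT corn oil, 28 of 36 were above 0 (51.3% of all genes), with a median of 0.16. Against WT mice given CITCO, 23 of 36 were above 0 (51.6% of all genes), with a median of 0.14. Eef1a1, which delivers aminoacyl-tRNA, averaged 779 CPM in WT mice given corn oil, 924 CPM in WT mice given CITCO, 1032 CPM in hCAR/hPXR mice and 870 CPM in CarKO/hPXR mice (hCAR/hPXR CITCO against WT corn oil: log2 fold change 0.41, SE 0.14, adjusted p = 0.257, edgeR). Eef2, the translocase, averaged 885, 891, 1089 and 909 CPM in the same order of groups (adjusted p = 0.680 among the 4 groups, edgeR).
The 39 tested genes of ribosome assembly and rRNA synthesis gave no call in any comparison. For hCAR/hPXR CITCO their median was 0.20 against WT corn oil (31 of 39 above 0, beside 51.3% of all genes). It was 0.03 against WT mice given CITCO and 0.10 against CarKO/hPXR mice. WT mice given CITCO against corn oil gave 0.18 (27 of 39 above 0, beside 50% of all genes). Ncl (nucleolin) averaged 145 to 155 CPM in the 4 groups, and Npm1 (nucleophosmin) 124, 124, 166 and 119 CPM in the order above (hCAR/hPXR over CarKO/hPXR mice: log2 fold change 0.48, SE 0.17, adjusted p = 0.265, edgeR). The 22 tested genes of mTORC1 and TOP message control had a median of −0.03 for hCAR/hPXR CITCO against WT corn oil (10 of 22 above 0), without a call. Larp1, which binds TOP messages, averaged 197, 142, 168 and 179 CPM in the 4 groups, with an adjusted p of 0.513 among them (edgeR), and Deptor, an inhibitor of mTOR, 320, 297, 306 and 314 CPM.
Mitochondrial ribosomal proteins, which belong to a separate ribosome, lay nearer 0: of 78 tested, 39 were above 0 for hCAR/hPXR CITCO against WT corn oil, with a median of 0.01, and 41 against WT mice given CITCO, with a median of 0.04, and none was called in any comparison. Mrpl12 averaged 173, 136, 148 and 160 CPM and Mrpl53 161, 119, 123 and 150 CPM in the 4 groups. Of 5 cytosolic ribosomal genes with other names (Fau and Rack1 among them), none was called, and 3 of 5 were above 0 for hCAR/hPXR CITCO against WT corn oil, with Fau averaging 399, 346, 385 and 361 CPM. At an unadjusted p under 0.05 (edgeR) for hCAR/hPXR CITCO against WT corn oil, 3 of 36 translation factor and TOP genes, 8 of 39 assembly genes, 0 of 22 mTORC1 genes, 3 of 78 mitochondrial ribosomal genes and 0 of the 5 with other names were higher, beside 5.82% of all genes. In the same order of lists, 1, 2, 0, 3 and 0 were lower, beside 5.11% of all genes.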

How the data were processed

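Liver RNA of 12 mice, 3 in each of 4 groups by the labels, was sequenced from 3′ ends (Lexogen QuantSeq for Ion Torrent). The authors trimmed reads with Trimmomatic 36, aligned them with STAR 2.5.2 to Ensembl GRCm38 and deposited RSEM 1.3 expected counts per gene, without normalization. They also deposited log2-scale values from DESeq2's variance-stabilising transformation, used here for symbols and in 1 alternative. No per-sample column was left unmatched. Depth is 1167027 to 2341572 counts per library, and limits from low counts cover counting error only.

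Expected counts were rounded, filtered by edgeR's filterByExpr, TMM-scaled and tested by edgeR's quasi-likelihood test (edgeR 4.0.16, R 4.3.3) in 1 fit of all 12 libraries, with a mean per group and Benjamini-Hochberg adjustment over all 8594 genes. DESeq2 1.42.0 and limma 3.58.1 gave alternatives. The fit was tested on simulated data for hCAR/hPXR against WT mice given CITCO. It recovered 29.5% of simulated 1.5-fold changes, 90% of 2-fold changes and 99.5% of 3-fold changes. The simulated spread was set in advance and not fitted to these libraries. For the changed genes it lay below the common biological coefficient of variation of these libraries, 0.21. Each run changed 200 genes, taken from those with higher mean counts. Recovery may thus be lower in these data, above all at low counts. A gene that was not called may therefore still differ by 1.5-fold or more. All genes called at an adjusted p under 0.05 also changed over 1.5-fold. Named genes are called ones, the largest rise and fall of each comparison, a fixed set of 20, and for each other list its called or 2 most abundant genes. Members and lists were chosen with earlier results of these data known. Copies were found in GENCODE M21, a different release from the authors'. Some items are not reported here.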

Additional observations from a re-analysis of the deposited data

How the results depend on the processing

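Depth limits the low genes, and copies limit what a single gene's count means. For WT CITCO against WT corn oil, 1 ribosomal protein gene was called (20 of all 8594 genes tested). The number was 2 with no filter on low counts (179 of all 20067 genes). It was 0 with only the groups compared fitted (14 of 7853) and 0 with copies summed (22 of 8524). On leaving out each library it was 0 to 1 (6 to 54 over all genes). It was 0 without WT corn oil replicate 2 or 3 or WT CITCO replicate 1 or 2. For hCAR/hPXR CITCO against WT corn oil, 2 were called (85 of all 8594 genes). The number was 1 with DESeq2 size factors (82 of 8594), total counts only (84 of 8594), limma on the deposited values (75 of 17859) or copies summed (96 of 8524). It was 5 with no filter (261 of 20067), 4 with the DESeq2 test (148 of 8594) and 0 with only the groups compared (82 of 8017). On leaving out each library it was 0 to 2 (25 to 91 over all genes). It was 0 without WT corn oil replicate 2 or 3 or hCAR/hPXR CITCO replicate 1. Without hCAR/hPXR CITCO replicate 2, Rpl5 and Rps13 were called in place of Rpl9 and Rps4x. With no filter, 1 ribosomal protein gene was called in each of the other 4 comparisons, where none was (95 to 233 of all 20067 genes). Rps12l1 was called without CarKO/hPXR CITCO replicate 1 for CarKO/hPXR against WT CITCO (14 of all 9069 genes) and against hCAR/hPXR (19 of 9069). Leaving out libraries thus gave 0 to 1 in both. Among the 4 groups, 1 was called (122 of all 8594 genes). The number was 5 with no filter (540 of 20067), 2 with DESeq2 (229 of 8594) and 0 with copies summed (139 of 8524). On leaving out each library it was 0 to 1 (60 to 160 over all genes), with Rps12l1 in place of Rpl9 without CarKO/hPXR CITCO replicate 1. The median log2 fold changes of the 82 genes lay between 0.10 and 0.19 for hCAR/hPXR against WT CITCO on leaving out each library, 0.12 and 0.25 against CarKO/hPXR, and 0.14 and 0.26 against WT corn oil, each lowest without hCAR/hPXR replicate 3. That of CarKO/hPXR against WT CITCO was 0.026 with total counts only. Of single genes, Rpl12 turned to 0.039 and Rpl35 to 0.20 with copies summed, and Rps26 lay between −0.78 without hCAR/hPXR replicate 3 and 0.10 without WT corn oil replicate 3. Replicate numbers were not taken as pairs of mice. Same-numbered libraries correlated at −0.06 to 0.08 (median 0.03) in their deviations from group means, others at −0.12 to 0.14 (median −0.01). The labels do not say whether same-numbered libraries shared a litter or day. These correlations cannot decide it, since small values over all genes tested can hide a shared effect on some genes. With the replicate number as a block, 1 gene in place of 2 was called for hCAR/hPXR CITCO against WT corn oil (91 of all 8594 genes). Rps4x was then at an adjusted p of 0.0656 (edgeR), and no other count of ribosomal protein genes changed. Except as shown for copies, fewer genes tested or fewer libraries, the cause was not tested.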
